A study of Mus musculus with 13 samples.

Results

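The region described here is the KRAB zinc finger gene cluster of distal mouse chromosome 4, from 145 to 147.7 Mb of build mm9, together with the ordinary genes that border it. It was chosen by the measured methylation levels of male induced pluripotent stem cells (iPSCs) and male fibroblasts in these same libraries. The difference between those groups is therefore given as a description, with nothing read from it. Its members are the 5322 CpGs read in any library, grouped in 1 kb windows. A window entered the comparisons when it held 10 reads or more in all 13 libraries, and 144 of the 470 windows that reached 10 reads somewhere in the data did so, out of 96699 such windows in the genome and 6430 on the rest of chromosome 4.

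KRAB zinc finger proteins are DNA-binding repressors. Many of them bind transposable elements and recruit the co-repressor TRIM28, with histone H3 lysine 9 methylation and DNA methylation following at the bound site. Their genes sit in clusters that grew by local duplication, so neighbouring genes, pseudogenes and promoters within a cluster are close copies of one another.

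DNA methylation was read by reduced representation bisulfite sequencing (RRBS), which samples CpG-rich restriction fragments. The libraries were 4 of female iPSCs labelled XO (a single X chromosome; numbers 3, 5, 6 and 9), 2 of female iPSCs labelled XaXa (both X chromosomes active; 7 and 8), 3 of male iPSCs (1, 2 and 4), 2 of male mouse embryonic fibroblasts (MEF; 4 and 5) and 1 each of male reprogramming intermediates sorted as negative and as positive for SSEA1, a surface antigen of pluripotent cells. Feeder cells had been removed from the iPSCs. The labels give no strain, age, reprogramming factors or culture medium, and nothing in the labels says whether libraries of a group came from separate lines, so the p-values measure the spread between these libraries only.

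The cluster was recognised by its genes. RefSeq promoter sequences of 16 genes could be placed in the region by their CpG spacing and the bases around each CpG. In RefSeq gene order the stretch from Smarca5-ps to Zfp933 holds 79 genes, of which 17 are zinc finger genes, 54 are pseudogenes and 7 are long noncoding RNAs. Only 2 of these zinc finger genes, Zfp982 and Zfp933, had a promoter that could be placed, and 6 of the 13 with a listed promoter have fewer than 5 CpGs in it, too few to place. The windows up to the end of the Zfp933 promoter (94 of the 144) are called the zinc finger stretch, and the 50 beyond it, among genes such as Mfn2, a mitochondrial fusion GTPase, the distal stretch.

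The promoters on which the results turn are shown first, as the 250 bases before the start of transcription, 5′ to 3′ along the transcript, with sequence from RefSeq (GRCm38.p6) and mm9 positions from the match. In the first 5, capitals mark every CpG. The noncoding RNA Gm13165 matched at chr4:145335669-145335918 and again at chr4:146207405-146207654, both on the minus strand. Zfp982 lies at chr4:146816973-146817222 (plus strand) and Zfp933 at chr4:147222528-147222777 (minus). Miip, a gene for an inhibitor of cell migration, lies at chr4:147242626-147242875 (minus), and Fv1, a restriction factor against murine leukaemia viruses, at chr4:147242838-147243087 (plus), so these 2 windows overlap head to head.
Gm13165: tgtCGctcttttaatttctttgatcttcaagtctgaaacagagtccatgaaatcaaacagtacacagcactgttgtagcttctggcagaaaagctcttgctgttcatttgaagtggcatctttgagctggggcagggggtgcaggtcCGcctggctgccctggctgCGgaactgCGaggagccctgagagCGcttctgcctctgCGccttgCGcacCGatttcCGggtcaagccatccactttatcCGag
Zfp982: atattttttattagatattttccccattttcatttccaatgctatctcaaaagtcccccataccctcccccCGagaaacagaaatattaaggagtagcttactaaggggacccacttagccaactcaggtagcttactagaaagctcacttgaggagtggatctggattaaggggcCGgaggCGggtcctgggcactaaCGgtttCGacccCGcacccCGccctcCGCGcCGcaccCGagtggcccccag
Zfp933: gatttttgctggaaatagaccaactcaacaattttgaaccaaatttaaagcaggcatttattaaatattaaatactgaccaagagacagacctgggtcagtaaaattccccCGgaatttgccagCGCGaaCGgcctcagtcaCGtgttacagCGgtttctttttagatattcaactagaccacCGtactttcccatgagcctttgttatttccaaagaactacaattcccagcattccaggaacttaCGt
Miip: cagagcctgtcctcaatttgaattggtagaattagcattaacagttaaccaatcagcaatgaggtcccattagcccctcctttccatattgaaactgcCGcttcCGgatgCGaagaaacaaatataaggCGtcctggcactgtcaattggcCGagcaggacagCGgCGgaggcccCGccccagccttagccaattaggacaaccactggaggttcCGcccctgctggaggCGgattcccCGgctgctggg
Fv1: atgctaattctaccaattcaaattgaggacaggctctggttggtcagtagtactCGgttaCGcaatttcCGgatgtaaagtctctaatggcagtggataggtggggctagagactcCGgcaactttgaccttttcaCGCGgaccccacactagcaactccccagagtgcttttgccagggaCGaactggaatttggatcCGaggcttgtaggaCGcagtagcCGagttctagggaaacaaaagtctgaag

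Repeated copies made up part of the zinc finger stretch. Of all runs of 5 successive CpG spacings in the region, 36.8% occurred again in another window of it, in the same or the reverse order. In 54 other stretches of chromosome 4 of the same length the median was 8.47% and the highest 40.5%, and 1 stretch was at or above the region. Windows sharing at least 8 such runs were joined into 10 copy families with 42 windows in all, numbered along the chromosome. Of these windows 29 had 10 reads or more in all 13 libraries, out of 94 in the zinc finger stretch. Matches of 2 windows at this threshold numbered 46, beside a median of 6 and a highest of 113 in the 54 other stretches. By that count 2 stretches were at or above the region. Families 1, 2, 4 and 5 hold 9, 9, 7 and 5 windows, and the other 6 families are pairs. Members of a family share sequence, so they are not independent of each other, and how the authors' aligner divided reads between near-identical copies is not stated in the labels.

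Counterparts at promoters elsewhere were sought only for the 4 families of 5 or more windows. In 3 of them the arrangement of CpGs was found again at a promoter on another chromosome. Family 4 shared at most 3 runs with any window elsewhere. The pairs were not searched for promoters, though families 6, 7, 8 and 9 shared up to 14, 19, 30 and 21 runs with windows on other chromosomes. Family 5 shared up to 8 runs with the window chr9:103267001-103268000 at Cdv3, a gene named for its expression in the heart ventricle in carnitine deficiency. Family 2, which includes both Gm13165 matches, shared up to 22 with chr1:193220001-193221000 at Ppp2r5a, a regulatory subunit of protein phosphatase 2A. Family 1 shared up to 20 with chr8:83263001-83264000 at Smarca5, the ATPase of ISWI chromatin remodellers, and RefSeq lists the pseudogene Smarca5-ps in this cluster. The bases around the aligned CpGs were also the same in 12 of 12 comparisons for Cdv3, 46 of 48 for Ppp2r5a and 24 of 26 for Smarca5. The 3 promoters are shown because they carry some of the shared layout: Cdv3 at chr9:103268111-103268360, Ppp2r5a at chr1:193220921-193221170 and Smarca5 at chr8:83263359-83263608, all minus strand, with capitals only on the CpGs that lie in runs shared with the family.
Cdv3: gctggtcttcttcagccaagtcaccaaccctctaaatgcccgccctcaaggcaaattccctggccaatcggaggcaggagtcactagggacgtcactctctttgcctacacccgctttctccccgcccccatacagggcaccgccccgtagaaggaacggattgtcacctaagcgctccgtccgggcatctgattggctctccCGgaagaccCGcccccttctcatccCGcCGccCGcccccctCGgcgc
Ppp2r5a: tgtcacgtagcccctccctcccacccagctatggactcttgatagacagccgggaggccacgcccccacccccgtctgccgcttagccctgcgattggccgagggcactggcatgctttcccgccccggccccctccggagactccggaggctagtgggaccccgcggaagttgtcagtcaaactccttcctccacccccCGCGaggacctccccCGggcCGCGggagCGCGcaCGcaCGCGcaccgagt
Smarca5: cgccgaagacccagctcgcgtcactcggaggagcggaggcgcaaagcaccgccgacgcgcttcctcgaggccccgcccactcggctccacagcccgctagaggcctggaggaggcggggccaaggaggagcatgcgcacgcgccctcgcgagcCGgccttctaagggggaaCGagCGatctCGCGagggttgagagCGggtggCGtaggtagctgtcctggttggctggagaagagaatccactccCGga

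Reads over the region ranged from 8358 in XO 9 to 246216 in XaXa 8, and its share of all reads from 0.145% to 0.194%. The kind of site read differed between cell types: 52.4% to 62.4% of reads lay in CCGG in the iPSC libraries and 44.5% to 46.4% in the MEF and SSEA1 libraries, so that this difference and cell type cannot be told apart. Reads on the Y chromosome were 0.0219% of autosomal reads in the library labelled MEF 5, below the 0.0793% to 0.109% of the other male libraries and the 0.0397% to 0.0485% of the female ones. Results against MEF are therefore also given without it where that matters.

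The zinc finger stretch was more methylated than the rest of chromosome 4 in every library, and the distal stretch less. Averaged over its windows, the zinc finger stretch stood at 67.1% and 67.8% in MEF 4 and 5, at 64.7% and 63.9% in the cells negative and positive for SSEA1, at 60.1%, 63.2% and 60.8% in male iPSC 1, 2 and 4, at 63.9%, 60.3%, 60.9% and 55.9% in XO 3, 5, 6 and 9, and at 42.5% and 35.5% in XaXa 7 and 8. The XaXa libraries were the lowest, and XO 9 the lowest of the others. Set against the rest of chromosome 4 in the same library, the zinc finger stretch was higher by 5.81 ± 0.51 percentage points in MEF (SD, n = 2), 6.77 ± 1.59 in male iPSCs (n = 3), 4.80 ± 0.72 in XO (n = 4) and 5.14 ± 0.0045 in XaXa (n = 2). The distal stretch differed from the rest by -19.8 ± 0.76 points in MEF and by -9.36 ± 0.85 in XaXa.

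**Figure D1:**
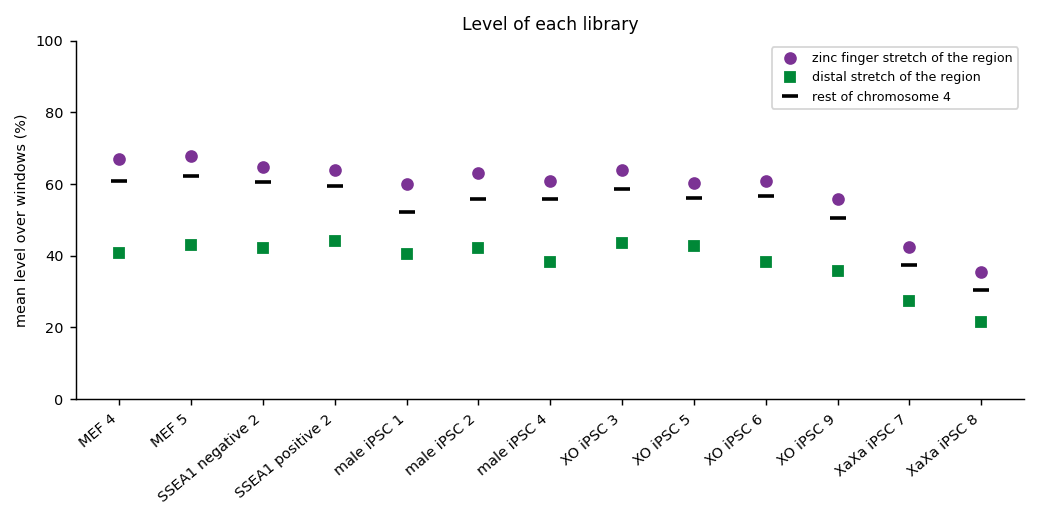
Mean methylation level in percent (vertical axis) of each of the 13 libraries (horizontal axis) over the zinc finger stretch (circles, 94 windows), the distal stretch (squares, 50 windows) and the rest of chromosome 4 (bars, 6430 windows). In each library the circle lies above the bar and the square below it, and the 2 XaXa libraries at the right are lowest for all 3.

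Over all 144 windows the level was 58.6% ± 0.87 in MEF, 54.1% ± 1.60 in male iPSCs, 53.3% ± 3.32 in XO and 34.0% ± 4.64 in XaXa. The rest of chromosome 4 stood at 61.6% ± 0.94, 54.6% ± 2.15, 55.5% ± 3.46 and 33.9% ± 4.94 in the same order. The region thus differed between groups by about as much as the chromosome around it. No test of these means was made, since the region was chosen with results known.

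These means combine highly methylated windows of the zinc finger stretch with islands that were low in every iPSC library. Of its 94 windows, 41 were above 80% in MEF. Those 41 averaged 87.6% ± 0.23 in MEF, 81.1% ± 1.62 in male iPSCs, 80.3% ± 3.8 in XO and 53.2% ± 5.48 in XaXa. The 2636 windows of the rest of chromosome 4 that were above 80% in MEF averaged 88.3% ± 0.76, 71.9% ± 2.81, 72.5% ± 3.45 and 45% ± 6.05. The highly methylated windows of the zinc finger stretch were thus higher in every iPSC group than the same class on the rest of the chromosome. So were the 11 of the distal stretch, at 75.3% ± 2.97 in male iPSCs, 73.6% ± 2.46 in XO and 47.9% ± 7.11 in XaXa. These differences were not tested because the male iPSC level entered the choice of the region.

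**Figure D2:**
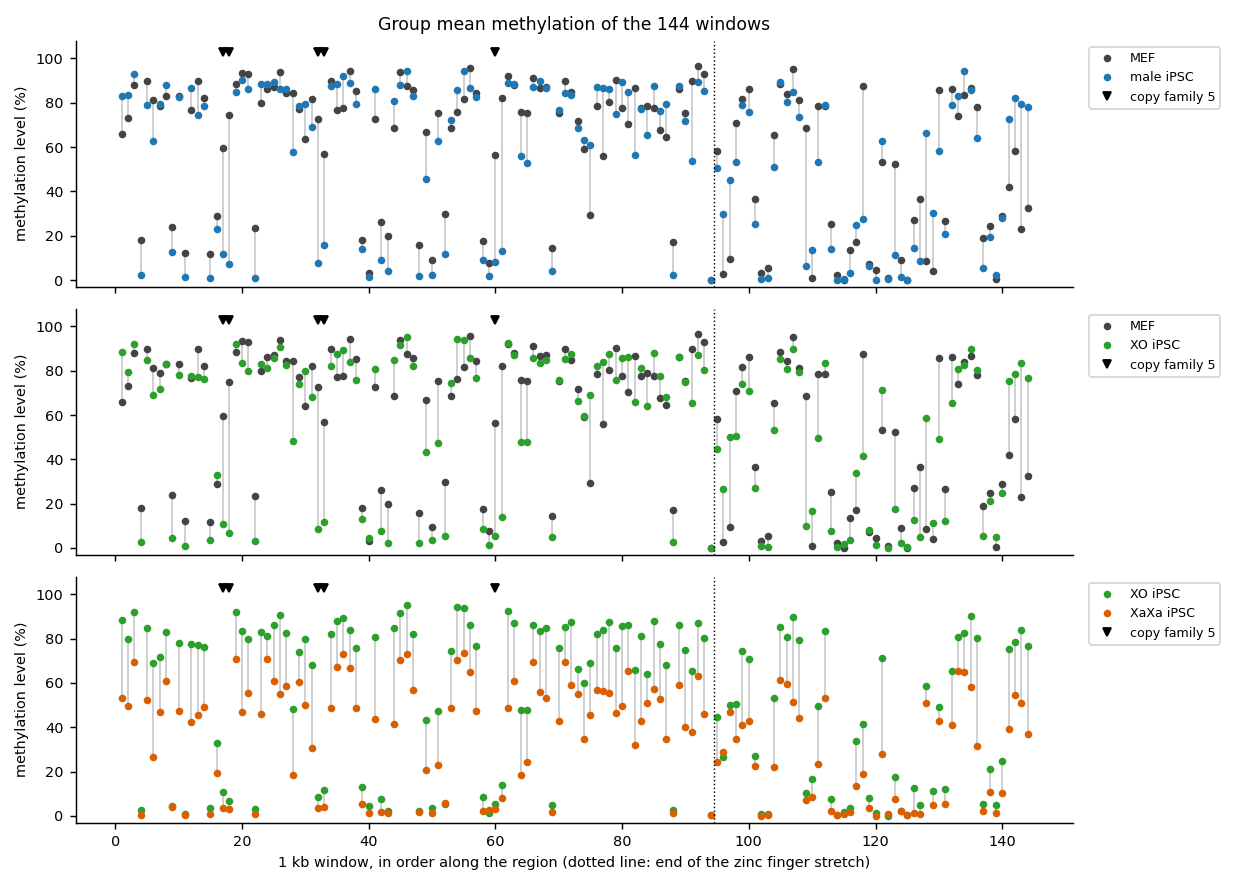
Group mean methylation in percent (vertical axis) of each of the 144 windows in their order along the region (horizontal axis), for MEF and male iPSCs (top), MEF and XO iPSCs (middle) and XO and XaXa iPSCs (bottom), with a grey line joining the 2 groups of a window. Triangles mark the 5 windows of copy family 5, whose means run from 56.5% to 74.7% in MEF and reach at most 15.8% in any iPSC group, and the dotted line marks the end of the zinc finger stretch.

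Copy family 5 was methylated in fibroblasts and sorted intermediates and nearly unmethylated in iPSCs. With the reads of its 5 windows pooled, the level was 68.9% and 69.2% in MEF 4 and 5, 70.8% in the SSEA1-negative library (95% Wilson interval 69.6% to 71.9%) and 67.2% in the other sorted one (65.9% to 68.5%). It was 9.79%, 8.85% and 9.74% in male iPSC 1, 2 and 4, 13.2%, 9.21%, 6.33% and 4.04% in XO 3, 5, 6 and 9, and 4.24% and 2.65% in XaXa 7 and 8. All 4 fibroblast and sorted libraries were thus above all 9 iPSC libraries, with no value between 13.2% and 67.2%. The sorted libraries, both of them, stood at the MEF level whatever their SSEA1 status. These values rest on 1090 reads in XO 9 to 33673 in XaXa 8. One read over several CpGs enters the sums several times, so the intervals cover counting error only and are too narrow.

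All 3 places of family 5 were low in iPSCs. The MEF libraries took part in choosing the region, so the adjusted p-values against MEF, here and for the windows described further on, are not independent of that choice. At chr4:145427001-145428000 the level was 76.8% and 72.6% in MEF and 10.9%, 6.14%, 5.32% and 4.19% in XO 3, 5, 6 and 9, a difference of -68 points (adjusted p = 1.62e-07). XaXa, at 3.88% and 2.19%, was -71.7 points from MEF (adjusted p = 5.00e-07), and no iPSC library came near either MEF library. The second place, read in the reverse order of CpGs, is chr4:145722001-145723000, with 73.4% and 72.4% in MEF, 14.1%, 9.69%, 5.74% and 3.8% in XO, and 4.64% and 2.69% in XaXa. There XO differed from MEF by -64.5 points (adjusted p = 3.05e-07). The first place also holds the window chr4:145426001-145427000, with 52.8% and 65.9% in MEF and 6.87% to 15.2% in XO (a difference of -48.6 points). The third is chr4:146561001-146562000, with 59.9% and 53.1% in MEF and 0.645% to 9.5% in XO. Its neighbour chr4:146562001-146563000, which shared too few runs to join the family, had 80.9% and 83% in MEF and 4.0% to 21% in XO (difference -68.2 points, adjusted p = 3.17e-07). Male iPSCs, whose difference from MEF took part in choosing the region, stood at 8.76%, 6.23% and 7.42% in the first of these windows and at 17.5%, 11.1% and 10.7% in the last.

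All 5 windows of family 5 and the neighbouring window were lower in XO and in XaXa than in MEF by the quasi-binomial model. Of all windows of the genome, 16.0% were called lower in XO and 64.8% in XaXa. Each of these windows of the region kept its call in XO when any single XO library was left out. Restricted to CpGs read at least 5 times in all 13 libraries, chr4:145427001-145428000 averaged 77.7% in MEF, 7.6% in male iPSCs, 6.54% in XO and 2.79% in XaXa, with 75.6% and 73.4% in the sorted libraries, so the difference was as large at the sites that every library read. Family 5 was read more deeply than the chromosome 4 median. Its reads per CpG were 3.19 to 4.45 times that median in the MEF and SSEA1 libraries and 1.94 to 2.82 times in the iPSC libraries. Family 2 stood at 0.889 to 1.21 times it in the MEF and SSEA1 libraries and 0.217 to 0.532 times in the iPSC libraries. Families 1 and 4 ranged from 0.315 to 1.45 times it over all libraries. On chromosome 9, the window that shares the most runs with family 5, chr9:103267001-103268000, stood at 13.7% and 4.80% in MEF 4 and 5, 7.57% and 7.17% in the sorted libraries and 0.985% to 8.67% in iPSCs. The Cdv3 promoter shown above lies in the next window, chr9:103268001-103269000, which stood at 0% in both MEF and both sorted libraries and at 0% to 2.63% in iPSCs.

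**Figure D3:**
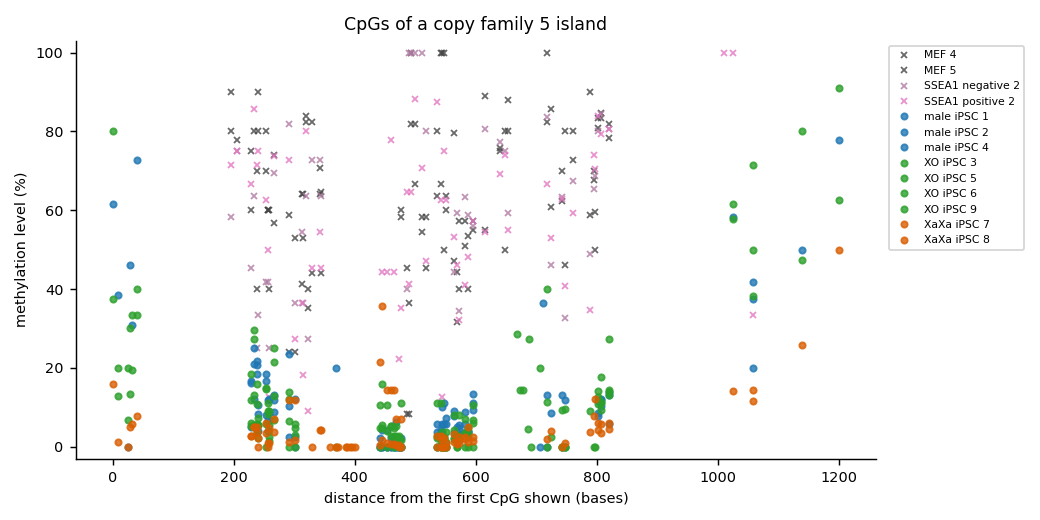
Methylation level in percent (vertical axis) of single CpGs with at least 5 reads across 1 island of copy family 5, by distance in bases from the first CpG shown (horizontal axis), with crosses for MEF and SSEA1 libraries and dots for iPSC libraries coloured by group. The median CpG stood at 64% in MEF 4 and 60.5% in MEF 5, and between 0% and 10.5% in the iPSC libraries.

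Copy families 1, 2 and 4 reached at most 28.8% in any library, and were lowest in iPSCs. Family 2, with Gm13165, stood at 19.2% and 14.1% in MEF 4 and 5, 15.6% and 13.1% in the sorted libraries, 1.23%, 1.95% and 2.54% in male iPSCs, 1.79%, 2.20%, 2.91% and 4.31% in XO and 1.79% and 0.655% in XaXa. Family 1 stood at 16.1% and 24.2% in MEF, 28.8% and 24.2% in the sorted libraries, and 1.39% to 6.98% in the 9 iPSC libraries. Family 4 stood at 6.36% and 10.1% in MEF, 16.5% and 6.24% in the sorted libraries, and 0.323% to 5.30% in iPSCs. Every iPSC library was thus below both MEF libraries in each of these 3 families.

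**Figure D4:**
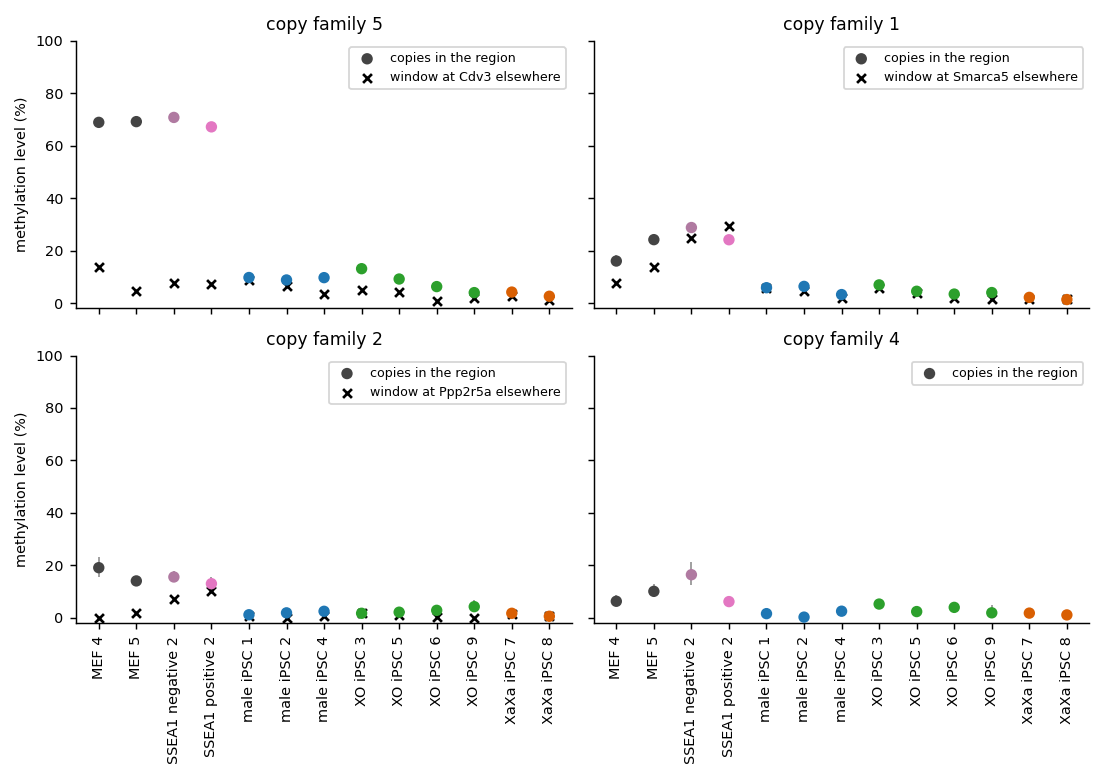
Methylation level in percent (vertical axis) of copy families 5, 1, 2 and 4 in each library (horizontal axis), with reads pooled over the windows of a family and bars for 95% Wilson intervals; black crosses give the window at Cdv3, Smarca5 or Ppp2r5a on another chromosome. Family 5 stands at 67.2% to 70.8% in the 4 MEF and SSEA1 libraries and at most 13.2% in the 9 iPSC libraries.

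At Gm13165 itself, the promoter shown above, the copy at chr4:145335669-145335918 had 6.94% and 8.31% in MEF and 0% to 3.23% in iPSCs, and the copy at chr4:146207405-146207654 had 21.2% and 8.67% in MEF, 14.2% and 9.57% in the sorted libraries and 0% to 1.11% in iPSCs (each over the full 300-base window). Of the 15 windows of families 1, 2 and 4 with enough reads, 8 were lower in XO than in MEF, beside 16.0% of all windows of the genome, and 12 were lower in XaXa than in MEF, beside 64.8%, with none called higher. The difference at chr4:145617001-145618000, in family 2, was -20.3 points for XO (adjusted p = 0.00388), with MEF at 27.8% and 19% and XO at 2.34% to 4.58%, and it was not called without MEF 4 (adjusted p = 0.0586). The Zfp982 promoter had 5.26% and 18.5% in MEF on 19 and 27 reads, 14.3% and 0% in the sorted libraries on 7 and 40 reads, and 0% to 10.4% in iPSCs, groups that overlapped. Each MEF library read 10 of its CpGs and the iPSC libraries 2 to 7, so the levels are not of the same CpGs. Unlike at Gm13165, the Zfp933 promoter was unmethylated in fibroblasts too, at 0% in MEF 4 and 5, where 42 and 120 reads allow up to 7.14% and 2.5%, at 0% in both sorted libraries and at most 0.763% in any iPSC library.

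At Smarca5 and Ppp2r5a the levels resembled or fell below those of the copies. The Smarca5 window had 7.58% and 14.0% in MEF 4 and 5, 25.0% and 29.3% in the sorted libraries and 1.49% to 5.98% in iPSCs. The Ppp2r5a window had 0% and 1.94% in MEF, 7.14% and 10.2% in the sorted libraries and 0% to 1.72% in iPSCs. Reads of these windows and of the copies can be exchanged by an aligner where the sequences are the same, and how far that happened was not tested.

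The remaining copy families, 3 and 6 to 10, were highly methylated in fibroblasts. Family 6 stood at 91.5% and 93.8% in MEF, 80%, 91.7% and 91.1% in male iPSCs, 86.7%, 82.6%, 87.4% and 84.9% in XO and 50.9% and 49.0% in XaXa. None of the 9 windows of these families with enough reads was called different between XO and MEF. Over the genome, 15482 of 96699 windows were called lower in XO and 4836 higher. With so few windows, the lack of calls does not show that these families were unchanged. Their differences ran from -28.0 to 0.417 points, with a median of -3.37.

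Across the whole region, 22 of 144 windows (15.3%) were called lower in XO than in MEF, beside 16.0% of all windows of the genome, and 8 (5.56%) were called higher, beside 5.0%. These shares are near those of the genome. Called means an adjusted p under 0.05 over all 96699 windows and a difference of at least 10 points. Against MEF, 98 windows (68.1%) were lower in XaXa, beside 64.8%, and 4 (2.78%) were higher, beside 0.781%. Male iPSCs, listed as a description only, were lower in 22 (beside 18.0%) and higher in 7 (beside 4.35%). These 3 comparisons share the 2 MEF libraries. The 22 windows lower in XO became 14 without MEF 4 and 14 without MEF 5, and the 8 higher became 4 without XO 3, 5 without MEF 4 and 4 without MEF 5. The 98 lower in XaXa became 56 without XaXa 8, and the 4 higher became 1 without XaXa 7 and 2 without XaXa 8, MEF 4 or MEF 5. The 22 lower in male iPSCs became 11 without MEF 5, and the 7 higher became 4 without MEF 4. For XO and MEF, 11 of the 30 windows called in either direction were called in each of the 6 fits with 1 library left out.

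Of the 65 other windows of the zinc finger stretch, 4 were lower and 3 higher in XO than in MEF, and 47 lower and none higher in XaXa. The largest XaXa difference among them outside the neighbour of family 5 was at chr4:145693001-145694000, with 80% and 88.9% in MEF, 20% and 84% in the SSEA1-negative and SSEA1-positive libraries, 57.9%, 24.1%, 62.2% and 48.8% in XO and 22.5% and 14.2% in XaXa (-66.1 points, adjusted p = 0.000215), where the SSEA1-negative library lay far below both MEF libraries. Of the 50 windows of the distal stretch, 5 (10%) were lower and 5 (10%) higher in XO. In XaXa 26 (52%) were lower and 4 (8%) higher, to be set beside the same shares of the genome.

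Several single windows of the distal stretch also differed from MEF by large amounts. The window chr4:147414001-147415000, next to that of Clcn6, a chloride and proton exchanger of late endosomes, had 73.9% and 63.4% in MEF, 57.9% and 59.7% in the sorted libraries, 1.69%, 5.71% and 11.2% in male iPSCs, 13.3%, 14.6%, 12.6% and 0% in XO and 10.3% and 3.68% in XaXa. No iPSC library reached the MEF range, and the differences from MEF were -58.5 points in XO (adjusted p = 7.99e-06) and -61.6 in XaXa (adjusted p = 4.78e-06). The window chr4:147486001-147487000 had 88.6% and 86.8% in MEF, 30.9% to 58.2% in XO and 29% and 8.57% in XaXa, with -46.1 points in XO (adjusted p = 0.00226) and -68.9 in XaXa (adjusted p = 1.94e-05).

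The opposite change occurred too. The window chr4:147680001-147681000 had 25% and 20.8% in MEF, 5.95% and 21.4% in the sorted libraries, 73.7%, 89% and 76.3% in male iPSCs, 87.1%, 80.9%, 83.4% and 83.3% in XO and 59.8% and 42.4% in XaXa. Every iPSC library was above every MEF and sorted library, and the mean difference from MEF was 60.8 points in XO (adjusted p = 8.74e-06). In XaXa it was 28.2 (adjusted p = 0.0130), a call lost without XaXa 7 or without MEF 5 (adjusted p up to 0.142). The window chr4:147547001-147548000 had 6.19% and 10.9% in MEF and 83.3%, 69.2%, 72.8% and 9.09% in XO, where XO 9, with the fewest reads, lay within the MEF range and the other 3 far above it (difference 50.1 points). At the last window of the region, chr4:147686001-147687000, the MEF libraries themselves differed, at 52% and 13.3%, and the difference of XO from their mean was 44.2 points, which was no longer called without MEF 5. The first window, chr4:145009001-145010000, had 75.8% and 56% in MEF, 84.2% to 96.9% in XO and 63% and 43.1% in XaXa.

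The promoters of most of the ordinary genes showed little methylation where they were read to some depth. Those of Mfn2, Plod1 (a collagen lysyl hydroxylase), 2510039O18Rik, Clcn6, Agtrap (a partner of the angiotensin II receptor), Draxin (an axon guidance factor), Mad2l2 (a subunit of a translesion DNA polymerase) and the F-box genes Fbxo2, Fbxo6 and Fbxo44 had at most 5.56% in the 111 of 133 values with 10 reads or more. The other 22 values rest on 1 to 9 reads, and even with 10 reads or more a level of 0% allows up to 27.3%. The noncoding RNA Gm13201 differed, with 46.2% and 18.5% in MEF on 26 and 27 reads and 55.6% in the SSEA1-negative library on 18. It had 0% to 8.33% in the 7 iPSC libraries that read it, on 8 to 68 reads. The 0% on 8 reads, in male iPSC 1, allows up to 37.5%. The MEF and SSEA1-negative libraries read 9 of its CpGs and the iPSC libraries 4, so the levels are not of the same CpGs.

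At the shared promoter of Miip and Fv1 the iPSC libraries differed among themselves. The Fv1 promoter window stood at 3.12% in MEF 4, 8.63% in MEF 5, and 10.7% and 11.3% in the sorted libraries. It had 59.0%, 52.9% and 5.33% in male iPSC 1, 2 and 4, 59.3%, 60.0%, 0.687% and 23.3% in XO 3, 5, 6 and 9 and 40.8% and 31.2% in XaXa 7 and 8. XO 6 thus lay below both MEF libraries, male iPSC 4 between them, and the other 7 iPSC libraries above them. XO 6 and male iPSC 4 were also the deepest of their groups, with 99546564 and 60276866 reads in all. XaXa 8, the deepest library with 143148634 reads, stood at 31.2%, and XO 9, the shallowest with 4784488, at 23.3%. In the Fv1 window XO 6, XO 9 and male iPSC 4 read 7 CpGs, the other iPSC libraries 6 and the MEF and sorted libraries 11. The part of depth and of the CpGs read in this was not tested. This locus was picked out after its values had been seen.

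**Figure D5:**
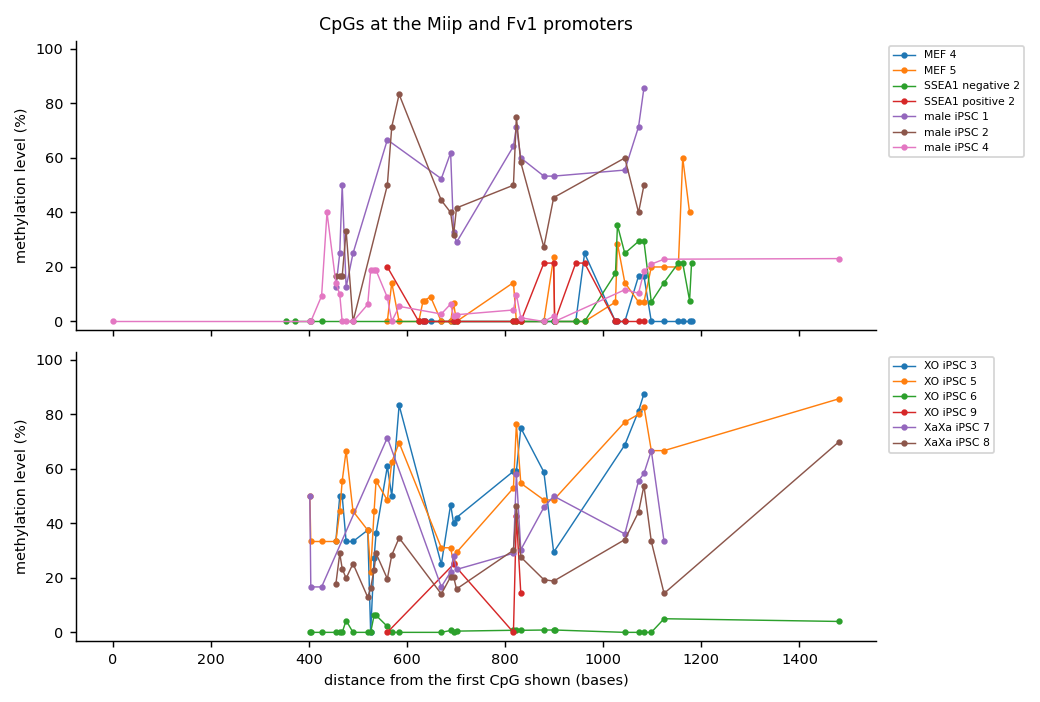
Methylation level in percent (vertical axis) of single CpGs with at least 5 reads at the Miip and Fv1 promoters, by distance in bases from the first CpG shown (horizontal axis), for male libraries (top) and female iPSC libraries (bottom). No CpG of XO 6 exceeds 6.25%, while the highest reach 87.5% in XO 3 and 85.7% in XO 5.

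In the window chr4:147242001-147243000, which holds most of both promoters, the rise from MEF was 23.8 points in XO (adjusted p = 0.0377) and 26.1 in XaXa (adjusted p = 0.0169). The call in XO was lost without XO 3, XO 5, MEF 4 or MEF 5 (adjusted p up to 0.259), and that in XaXa without XaXa 7, XaXa 8 or MEF 4 (up to 0.113). In the next window, chr4:147243001-147244000, XO 3, 5, 6 and 9 had 76.9%, 78.8%, 0.445% and 43.8%, and the difference of 40.4 points from MEF missed the threshold (adjusted p = 0.0630). It had the widest range of the region over the 7 XO and male iPSC libraries, 78.3 points. In 6 of the 144 windows (4.17%) this range was over 50 points, beside 2.33% on the rest of chromosome 4, and the median range was 17.7 points beside 19.3.

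Among iPSCs, XaXa was lower than both other groups in most windows. In the zinc finger stretch 64 of 94 windows were lower in XaXa than in XO and 65 lower than in male iPSCs. Over the region 85 windows (59.0%) were lower in XaXa than in XO, beside 70.1% in the genome, and 89 (61.8%) lower than in male iPSCs, beside 63.0%. None was called higher in either comparison by the quasi-binomial model or by limma on log2 ratios, and 0 had an unadjusted p under 0.05 in that direction, beside 0.0134% and 0.0972% of all windows called higher. Without XaXa 8, the deepest library, these counts were 27 and 21.

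The windows with the largest XaXa differences lay in both stretches. The window chr4:146577001-146578000 (family 6) had 95.8%, 90.7%, 88.3% and 95% in XO and 47.7% and 49.3% in XaXa, a difference of -44 points (adjusted p = 0.000666). The window chr4:145476001-145477000 had 84.7%, 93% and 93% in male iPSCs and 51.6% and 42% in XaXa (-43.4 points, adjusted p = 0.000562). Likewise chr4:145346001-145347000 had 82.8%, 88.9% and 88.1% against 46.4% and 38% (-44.3 points, adjusted p = 0.000858). At chr4:145070001-145071000 the values were 83.3%, 74.5%, 67.9% and 50% in XO and 31.6% and 21.7% in XaXa (-42.3 points, adjusted p = 0.000666). In the distal stretch, chr4:147634001-147635000 had 68.4%, 76.7%, 84.7% and 91.7% in XO and 28.1% and 35.2% in XaXa (-48.7 points, adjusted p = 0.000678), and chr4:147510001-147511000 had 65.4% to 77.3% against 27.3% and 28.2% (-43.5 points, adjusted p = 0.00102). In none of these 6 windows, picked for the size of this difference, did the groups compared overlap. Over the region, XaXa and XO did not overlap in 92 of 144 windows, and XaXa and male iPSCs in 110. The share of such windows over the genome was not counted, so these counts do not set the region apart. The median difference of XaXa from XO was -22.2 points in the region and -24.9 over the genome. From male iPSCs it was -21.8 and -24.7.

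In the islands the differences between XaXa and XO were small in points, with medians of -2.02 in families 1, 2 and 4 and -4.67 in family 5. The level in XO leaves little room there for a difference of 10 points, so that calls say nothing of these windows. Of the 65 windows of the zinc finger stretch outside the families 56 were called lower in XaXa than in XO, and 8 of the 9 of the methylated families, beside 70.1% of all windows of the genome. In relative terms, the 41 windows above 80% in MEF held 0.662 of the XO level in XaXa, and the 13 zinc finger windows under 20% in MEF held 0.422, at 1.61% ± 0.96 beside 3.82% ± 0.72.

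The mean level of the region in XO differed from that in male iPSCs by -0.815 points, less than the pooled SD of 2.77. The groups did not overlap in 6 of 144 windows, a share that was not counted over the genome. No window was called lower or higher by the quasi-binomial model or by limma on log2 ratios, beside 0.00310% and 0.00517% of all windows by the model. An unadjusted p under 0.05 was found in 2 of 144 windows by the model, and by limma in 3 lower and 5 higher in XO. Single window differences ran from -19.2 to 16.4 points, and a p that misses the threshold does not show that the groups were alike.

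By median reads per CpG, chr4:146641001-146642000 led with 106, followed by chr4:146026001-146027000 with 96.0, chr4:145272001-145273000 with 89.7, chr4:146562001-146563000 with 85.2 and chr4:145045001-145046000 with 73.2, the last at 3.53 times the chromosome 4 median. Of these 5, chr4:146562001-146563000, beside family 5, was the one called between MEF and XO. The window chr4:146641001-146642000 had 85.3% and 88.8% in MEF, 80.9%, 86.5%, 89.1% and 82.3% in XO and 55.7% and 50.6% in XaXa. It is also among the 3 methylated windows with the smallest difference between male iPSCs and MEF, with chr4:146579001-146580000 and chr4:147444001-147445000, where the difference was 0.37 and 0.469 points.

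The requirement of 10 reads in each library excluded many windows. The 11 windows whose shallowest library had exactly 10 reads averaged 73.3% in MEF and 69.6% in XO, and the 7 whose shallowest had 9 averaged 57.9% and 67.6%.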

How the data were processed

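Genomic DNA of 13 libraries was read by RRBS. Per the labels' protocols, iPSCs were depleted of feeders first. The tables deposited by the authors give counts of all and of methylated reads at each CpG, and the methylated fraction, which the authors' tables hold as methylated over all reads and which was not used. The submitters' processing notes name BSMAP and build mm9. They give no version, trimming or treatment of reads that match several places. Coordinates are written from 1.

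Reads were summed over the CpGs of 1 kb windows. Windows with at least 10 reads in all 13 libraries (96699) entered a quasi-binomial model with a mean for each of the 4 replicated groups (11 libraries), with dispersion moderated by limma (squeezeVar) and kept at 1 or above, an F test and Benjamini-Hochberg adjustment over all windows. Read counts were scaled down for the spread between libraries beyond sampling (rho = 0.0298) and the window level entered the dispersion prior. Both were added after a run on simulated data with known changes showed that unscaled reads called too many unchanged windows; unscaled reads are an added alternative. A level is the unweighted mean over windows. The SSEA1 libraries, 1 of each kind, have no test.

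RefSeq promoters were placed by content, with at least 5 CpGs matching in spacing and in the 5 bases around each, and with no coordinate carried between builds. The plan had been to tie no gene to a window without an mm9 annotation; the placement, the copy families' counterparts elsewhere and the division of the region were added after the data were seen. Named windows were, among those with at least 3 CpGs, the 10 with the largest difference between male iPSCs and MEF, the 5 called windows with the largest difference in each other comparison, the 5 deepest, the 3 least changed of those over 50% in MEF, and the first and last; windows of the copy families and promoters were named besides. The region, the lists and the tests were chosen with earlier results of these data known. Models were fitted in R 4.3.3 with limma 3.58.1 and tables were made with pandas 2.3.3 under Python 3.11.15.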

Additional observations from a re-analysis of the deposited data

Results flagged for a closer look

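Among groups of 4 libraries, which here means XO, 37 sets of values were looked at for a library standing far from the others, and chance alone marks about 1 in 20. In 3 sets 1 library did. In copy family 9, XO 5 stood at 52.8% and the other 3 XO libraries at 70.8% to 73.2%. In the window chr4:146579001-146580000, XO 3 stood at 91.7% and the others at 85.2% to 85.9%. In the window chr4:147414001-147415000, XO 9 stood at 0% and the others at 12.6% to 14.6%; XO 9 is the library with the fewest reads.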

How the results depend on the processing

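No paired analysis was possible because the groups compared share at most 1 replicate number. The mean level of the region differed by -4.50 points between male iPSCs and MEF, and by -6.93 with 20 reads per window, -24.4 with the reads of all windows pooled, -8.74 at CpGs with 5 reads in all libraries and -6.09 in the zinc finger stretch. For XO and MEF it was -5.31, and -8.30, -25.7 and -9.61 under the first 3 of these. For XaXa and MEF it was -24.6, and -40.8 pooled, -29.3 at common CpGs and -28.4 in the zinc finger stretch. Pooling gave -15.1 for XaXa and XO (-19.3) and -16.4 for XaXa and male iPSCs (-20.1), and with 1 library left out the latter ran from -23.4 to -16.8. Pooling weights windows by their reads, of which family 5 held from 11.8% in male iPSC 2 to 17.4% in MEF 5.

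Windows called lower in male iPSCs than in MEF numbered 22, 12 at common CpGs, 14 with both groups alone and 11 to 20 with 1 library left out. Those called higher numbered 7, 1 at common CpGs, 11 with unscaled reads and 4 to 8. For XO and MEF the 22 lower became 11 at common CpGs and 14 to 26 with a library left out. The 8 higher became 4 with 20 reads, 16 with 5 reads, 1 at common CpGs, 5 with both groups alone and 4 to 9. For XaXa and MEF the 98 lower became 59 with 20 reads, 42 at common CpGs and 56 to 93. The 4 higher became 2 with 20 reads, 0 at common CpGs, 2 with limma, 2 with unscaled reads and 1 to 2. The 85 lower in XaXa than in XO became 43 with 20 reads, 38 at common CpGs and 27 to 91, and the 89 lower than in male iPSCs became 45, 36 and 21 to 81. Only 88 windows have 20 reads and 61 have common CpGs, so fewer could be called. No difference changed sign beyond its spread. The zinc finger stretch, unscaled reads and each library's own windows were chosen as alternatives after seeing the data. Depth is limited by XO 9, with 8358 reads in the region.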
